A study of Rattus norvegicus with 12 samples.

Results

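Kidney nuclei of obese ZSF1 rats given sGCact, an activator of soluble guanylate cyclase (sGC), were compared with those of obese ZSF1 rats given vehicle. The comparison took every nucleus of the deposited table whose group entry was obese (the vehicle group) or obese with sGCact, which gave 120485 of 217132 nuclei, 67160 from 3 vehicle rats and 53325 from 3 sGCact rats, so that 6 of the 12 sequenced rats entered. All rats were males of the strain ZSF1-LeprfaLeprcp/Crl, in which mutations of the leptin receptor make the obese form diabetic with kidney disease. From an age of 13 to 14 weeks the obese rats received vehicle (ethanol, Kolliphor HS15 and water) or the sGCact BAY 1101042 (Runcaciguat) at 3 mg/kg, 2 times a day, for 12 weeks. Another obese group received the sGC stimulator sGCstim, BAY 1165747, at 3 mg/kg 1 time a day for as long, and lean rats were untreated. Each obese group held 10 rats, of which 3 were sequenced. Nuclei came from a small piece of frozen kidney of each rat, and which region of the kidney the piece held is not given in the sources used here.

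Soluble guanylate cyclase is the receptor for nitric oxide and makes the second messenger cGMP, which relaxes vessels and acts in mesangial cells, pericytes and other kidney cells. Oxidative stress, as in diabetes and obesity, can oxidize or remove the heme of the enzyme, after which nitric oxide no longer activates it. An activator such as sGCact works on the oxidized or heme-free enzyme, whereas a stimulator works on the heme-containing enzyme and adds to nitric oxide. The question put to the nuclei was whether the makeup of each kidney cell type, and the quality values of its nuclei, differed between rats given sGCact and rats given vehicle.

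Each nucleus carried a cluster, a cell type and a second type column that the authors assigned. There were 25 clusters in 8 types, and 23 of the clusters belonged to the 6 types with more than 1 cluster. Each cluster was taken as a share of its own type in each rat, so that the amount of a type in a rat did not set the share. Gene values were not analysed here, so the names could not be checked against markers. Changes in shares are given as natural log odds, sGCact minus vehicle, with the rat as the replicate.

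The libraries differed in number of nuclei and in transcript counts of proximal tubule nuclei in ways that the groups did not follow. The 6 rats had between 10488 and 43484 nuclei in the table, and RK9_4 of the vehicle group had the most, while the labels state that 10000 nuclei were loaded. The median number of unique molecular identifiers (UMIs, counts of single transcript molecules) per proximal tubule nucleus was 699, 892 and 1546 in the vehicle rats RK7_4, RK9_4 and RK16_4, and 934, 803 and 2018 in the sGCact rats RK43_4, RK45_4 and RK46_4. RK16_4 and RK46_4 thus stood apart within their groups, and the larger changes in share are given with the range over leaving out each of the 6 rats in turn. Other values of whole libraries lay nearer to the groups. The median mitochondrial percentage of all nuclei was 2.13%, 3.74% and 0.497% in the vehicle rats, in the same order. In the sGCact rats it was 1.01%, 0.415% and 0.0376%, lower in 8 of 9 pairs of rats (p = 0.2 in the exact permutation test). The mean G2M score, given below, did not overlap between the groups. No name of a nucleus was repeated, and each of the 15 pairs of the 6 rats shared between 31 and 290 barcodes.

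With all nuclei, 0 of 23 clusters changed as a share of their type at an adjusted p of 0.05 by limma (0% called), 0 at an unadjusted p under 0.05 and 0 by edgeR. The groups did not overlap in 5 of 23 clusters (21.7%), of which 3 were higher and 2 lower with sGCact. With 1 of the 6 rats left out, the change had another direction in at least 1 fit for 12 of 23 clusters. Median UMIs did not overlap between the groups in 3 of 23 clusters with at least 5 nuclei in every rat. This limit of 5 was chosen after the values were seen. The median ascending thin limb nucleus held fewer UMIs in every sGCact rat than in any vehicle rat, with 6 such nuclei in RK46_4. The median podocyte nucleus held more UMIs in every sGCact rat than in any vehicle rat. The podocyte change passed, a call that held under 7 of 15 alternatives by type and 10 of 15 by cluster. The share of nuclei with at least 1000 UMIs did not overlap in 5 of 23 clusters (21.7%), and no fit was made of it. Among these was the injured proximal tubule cluster, with a smaller share in every sGCact rat than in any vehicle rat. The median UMIs of that cluster overlapped.

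The proximal tubule reabsorbs most of the filtered water, glucose and amino acids, and held 69.4% of the nuclei of the 6 rats. Its nuclei fell into 8 clusters, among them convoluted tubule (PCT), straight tubule (PST, with an S2 part), clusters named for Spp1, which encodes osteopontin, injured cells (PTinj) and 2 clusters named PTnov. The PST cluster, the largest, made up 67.8%, 75.4% and 15.4% of the proximal tubule nuclei of RK7_4, RK9_4 and RK16_4, and 14.5%, 30.7% and 24.2% of those of RK43_4, RK45_4 and RK46_4. A pair of vehicle rats lay far above every sGCact rat, and RK16_4 lay among them. The change was -1.30 (SE 0.676, limma adjusted p = 0.651 and p = 0.3 in the exact permutation test). Without RK16_4 it was -2.17 (SE 0.439, limma adjusted p = 0.0195), the only call of any cluster in a fit of all nuclei with 1 rat left out, and over all alternatives the adjusted p ran from 0.0195 to 0.957. Without RK9_4 the change was -0.765. Without both RK16_4 and RK46_4 it was -2.22 (SE 0.509, limma adjusted p = 0.0570).

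PCT nuclei made up 10.4%, 6.65% and 23.1% of the proximal tubule in the vehicle rats and 31.2%, 25.6% and 23.2% in the sGCact rats, in the same order of rats. Each sGCact rat was above each vehicle rat, although RK16_4 and RK46_4 lay next to each other. The change was 0.98 (SE 0.451, unadjusted p = 0.0556, limma adjusted p = 0.651 and p = 0.1 in the exact permutation test, the smallest that 3 rats against 3 allow). With 1 rat left out it ran from 0.66 without RK9_4 to 1.38 without RK16_4. The straight tubule cluster named for Spp1, PST(Spp1+), showed the largest fitted change of the type. It made up 2.36%, 0.175% and 7.34% in the vehicle rats and 24.2%, 20.1% and 3.66% in the sGCact rats. RK43_4 and RK45_4 lay above the other 4 of these rats, and RK46_4 lay below RK16_4, while the sGCstim rat RK61_4 had 42.0%. The change was 2.27 (SE 1.17, 95% confidence interval -0.35 to 4.89, limma adjusted p = 0.651 and p = 0.2 in the exact permutation test). With 1 rat left out it ran from 1.2 without RK9_4 to 3.10 without RK16_4, and it was 2.94 without RK46_4.

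The injured cluster PTinj made up 5.96%, 1.14% and 24.0% of proximal tubule nuclei with vehicle and 3.23%, 2.75% and 6.18% with sGCact. The highest value was again that of RK16_4, and the change was -0.44 (SE 0.650, limma adjusted p = 0.795). Without RK16_4 it was 0.38 (limma adjusted p = 0.643) and without RK9_4 it was -1.27, so its direction rested on RK16_4. Of the other clusters, PST(S2) had a mean share of 9.45% ± 9.26 (SD, n = 3) with vehicle and 21.5% ± 12.2 (SD, n = 3) with sGCact, PTnov1 5.81% ± 1.08 (SD, n = 3) and 6.71% ± 1.95 (SD, n = 3), and PCT(Spp1+) 4.74% ± 5.14 (SD, n = 3) and 1.83% ± 0.51 (SD, n = 3). The change of PST(S2) ran from 0.54 without RK9_4 to 2.18 without RK16_4, and that of PCT(Spp1+) from -1.28 without RK7_4 to 0.51 without RK9_4. PTnov2 had 0 nuclei in each vehicle rat, which allows at most 0.00749% in RK9_4 and 0.0605% in RK16_4, and 1, 0 and 2 nuclei in the sGCact rats, so no ratio is given. The half-width of a 95% Wilson interval was at most 1.60 percentage points in this type. Wilson intervals and limits of a count of 0 cover counting error only.

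Among proximal tubule nuclei with at least 1000 UMIs the order of the clusters was another. PST(S2) made up 26.5%, 3.11% and 23.8% with vehicle and 34.6%, 37.0% and 40.7% with sGCact, without overlap. The change of 1.36 (SE 0.910) did not pass (limma adjusted p = 0.631), and within this filter 4 of 23 clusters did not overlap. The filter kept at least 78.8% of the PST(S2) nuclei of each of the 6 rats but at most 38.6% of the PST(Spp1+) nuclei. Shares within it thus also follow the UMIs of the clusters. PST(Spp1+) made up 0.0412%, 0.297% and 1.72% with vehicle and 1.52%, 0.0962% and 1.41% with sGCact. Most of its nuclei lay below 1000 UMIs in every vehicle and every sGCact rat. The share that reached 1000 UMIs ran from 0.529% to 38.6% with vehicle and from 0.164% to 33.6% with sGCact. For PST the change was -0.44 (SE 0.577, limma adjusted p = 0.774), and for PCT it was 0.31 (SE 0.424, limma adjusted p = 0.774).

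The spread within the vehicle group was as wide as the distance between the groups. The dissimilarity of a pair of rats, the percentage points of proximal tubule nuclei that would have to change cluster to make them alike, was 18.0, 52.2 and 66.7 for the 3 pairs of vehicle rats and 16.1, 26.9 and 32.4 for the 3 pairs of sGCact rats. For the 9 pairs of an sGCact with a vehicle rat it ran from 25 to 69.2, with a median of 43.6. The bars of the makeup by rat show RK16_4 with a makeup nearer to the sGCact rats than to the other vehicle rats.

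**Figure D1:**
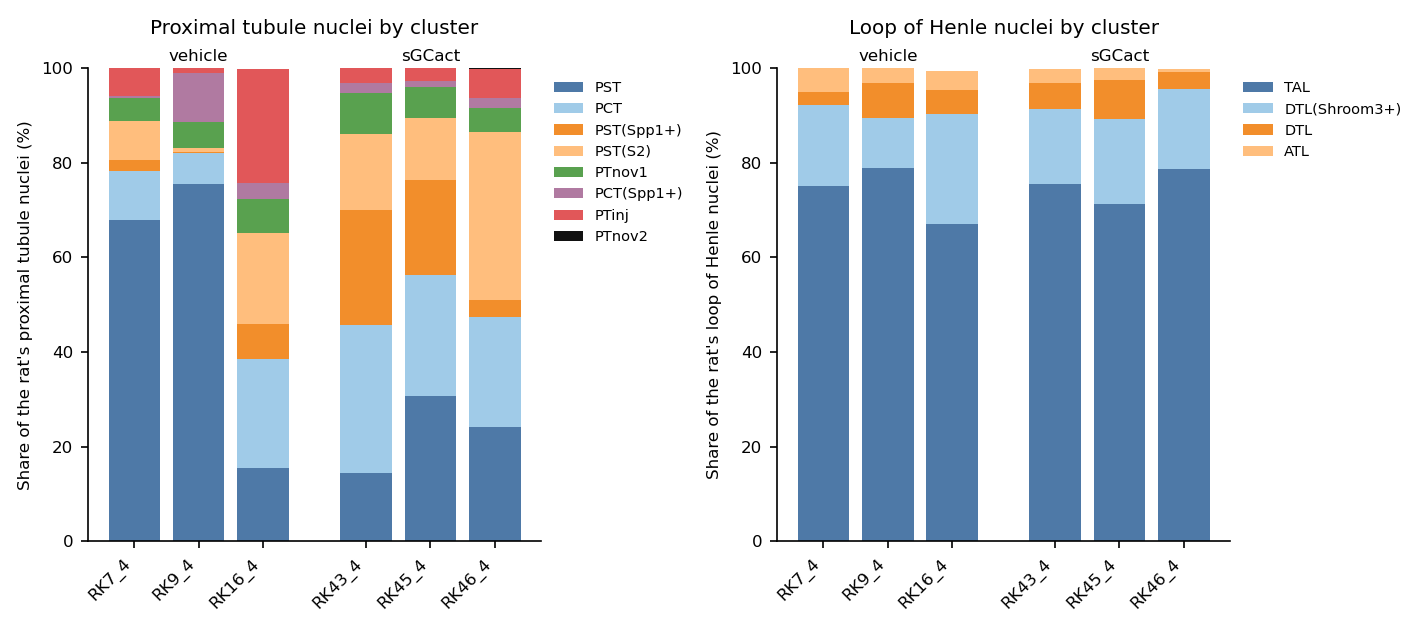
Share of proximal tubule nuclei (left) and of loop of Henle nuclei (right) in each cluster, in percent, with 1 bar for each of the 3 vehicle and 3 sGCact rats. PST takes over 67% of the bar in RK7_4 and RK9_4 but 15.4% in RK16_4 and 14.5% to 30.7% in the sGCact rats, and TAL takes most of every loop bar; bars end below 100% where a nucleus typed as loop carries a cluster of another type.

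The loop of Henle, which builds the salt gradient of the medulla, was made up of thick ascending limb (TAL), 2 descending thin limb clusters (DTL and DTL(Shroom3+)) and ascending thin limb (ATL). The thin limbs pass water or salt without active transport, and the thick limb takes up sodium chloride actively. With all nuclei, ATL made up 5.14%, 3.24% and 4.12% of the loop nuclei in RK7_4, RK9_4 and RK16_4 and 2.96%, 2.51% and 0.699% in RK43_4, RK45_4 and RK46_4. Each sGCact rat lay below each vehicle rat, by a change of -0.86 (SE 0.511, limma adjusted p = 0.711 and p = 0.1 in the exact permutation test). Without RK46_4, which had 6 ATL nuclei, it was -0.42. DTL had mean shares of 5.02% ± 2.30 (SD, n = 3) with vehicle and 5.82% ± 2.43 (SD, n = 3) with sGCact, DTL(Shroom3+) 17.0% ± 6.35 (SD, n = 3) and 16.9% ± 1.02 (SD, n = 3), and TAL 73.6% ± 6.04 (SD, n = 3) and 75.1% ± 3.71 (SD, n = 3). The fitted changes of these 3 clusters were 0.17, 0.04 and 0.07, each smaller than its SE, and each had the other direction with at least 1 of the 6 rats left out.

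The UMIs of ATL nuclei lay apart between the groups. Of the ATL nuclei 28 of 30, 23 of 23 and 46 of 53 held at least 1000 UMIs in the vehicle rats, against 3 of 55, 3 of 28 and 2 of 6 in the sGCact rats. The vehicle shares were thus 93.3%, 100% and 86.8% and the sGCact shares 5.45%, 10.7% and 33.3%, with no overlap, and the widest half-width of a 95% Wilson interval was 30.2 percentage points, for the 6 nuclei of RK46_4. In the sGCstim rats the same share was 95%, 93.8% and 99.2%, and in lean rats it was at least 90.4%. The median ATL nucleus held 1349, 2285 and 1411 UMIs in the vehicle rats and 719, 694.5 and 833.5 in the sGCact rats. Every sGCact rat lay below every rat of the other 3 groups, whose medians ran from 1349 to 2890.

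ATL was too small in RK46_4 for the limit of 10 nuclei in every rat, so its UMIs were fitted with a limit of 5 nuclei, chosen after these values were seen. On the log2 scale the median fell by 1.13 (SE 0.312, limma adjusted p = 0.00580, 2 of 23 clusters called, 8.7%, exact permutation p = 0.1). The call held under 14 of 15 alternatives. Without RK9_4 the change was -0.89 (limma adjusted p = 0.0953), without RK46_4 -1.21 (limma adjusted p = 0.0150) and without RK16_4 -1.23 (limma adjusted p = 0.00904). Set against the sGCstim rats, which were dosed 1 time a day rather than 2 times, the median ATL nucleus of the sGCact rats held fewer UMIs. The log2 difference was -1.29 (SE 0.312, limma adjusted p = 0.00183, 1 of 23 clusters called). This fit was also added after the values were seen, and no alternatives were run for it.

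The percentage of UMIs on mitochondrial genes went the other way in ATL. Its median was 0.126%, 0.204% and 0.367% in the vehicle rats and 4.08%, 2.73% and 0.965% in the sGCact rats, so that every sGCact rat was higher. With 0.1 added before log2 the change was 2.87 (SE 0.751, unadjusted p = 0.00242, limma adjusted p = 0.0557 with a limit of 5 nuclei, where 0 of 23 clusters passed, 0% called, and 2 had an unadjusted p under 0.05). Over its alternatives the adjusted p ran from 0.0189 to 0.437, and it passed without RK16_4, RK46_4 or RK61_4 and with 1 added before log2. Against sGCstim rats the difference was 4.12 (SE 0.751, limma adjusted p = 0.00324, 1 of 23 clusters called), in a fit likewise added later and without alternatives. The medians of those rats were 0%, 0.0176% and 0.103%.

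DTL nuclei were low in UMIs in both obese groups compared, with medians of 703.5, 908 and 783 in the vehicle rats and 682, 695 and 764.5 in the sGCact rats. Those with at least 1000 UMIs were 5 of 16, 16 of 52 and 15 of 64 with vehicle and 2 of 104, 0 of 93 and 1 of 30 with sGCact. The shares were 31.3%, 30.8% and 23.4% against 1.92%, 0% and 3.33%, again with no overlap. In TAL the medians overlapped, at 1517 ± 432 (SD, n = 3) with vehicle and 1641 ± 106 (SD, n = 3) with sGCact, so that low values were not seen in every loop cluster of the sGCact rats. DTL(Shroom3+) lay between, with medians of 1304.5, 2021 and 1076 with vehicle and 867, 771 and 1458 with sGCact, which overlapped.

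**Figure D2:**
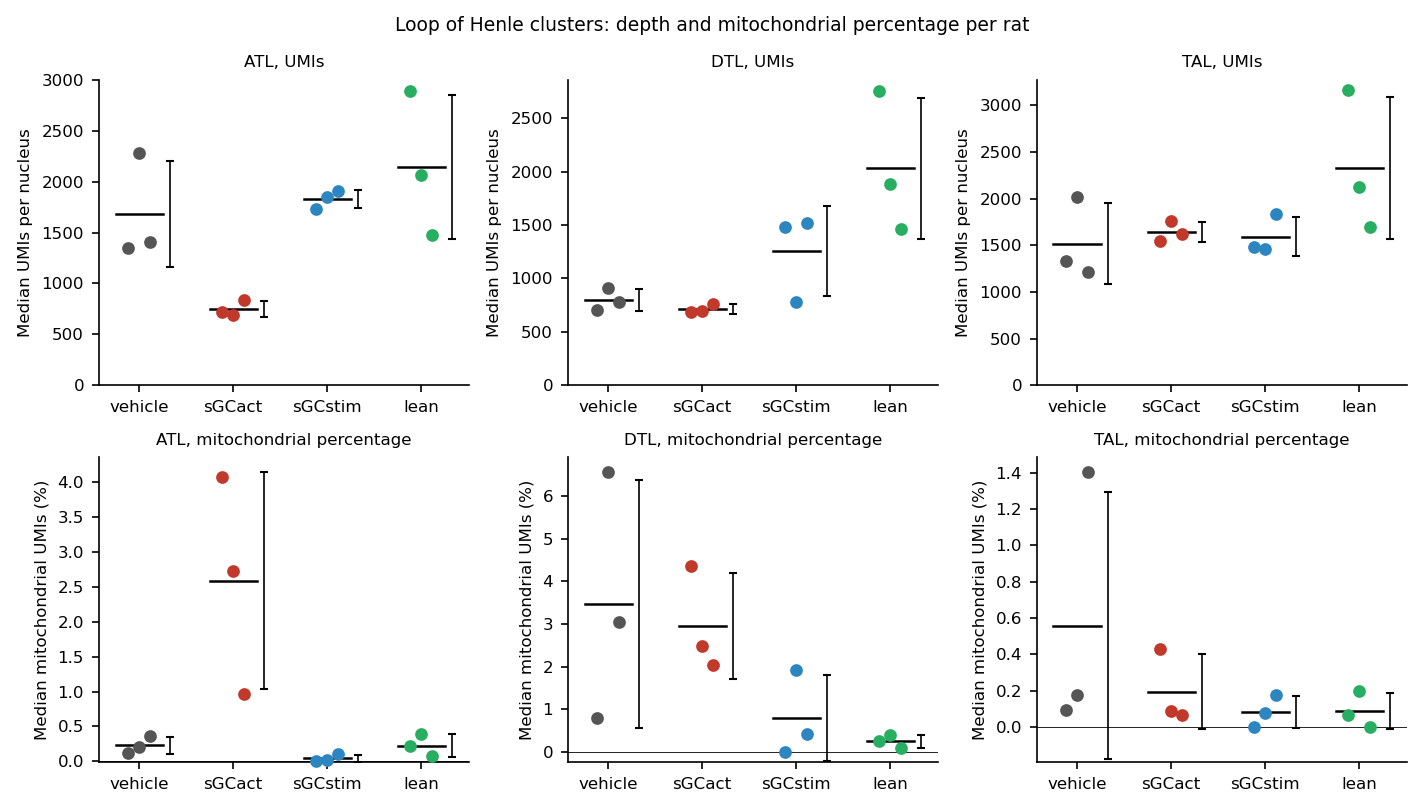
Median UMIs per nucleus (top) and median percentage of mitochondrial UMIs (bottom) of the ATL, DTL and TAL clusters, with 1 point per rat, a line at the mean of the 3 rats and a bar of ± 1 SD. In ATL the 3 sGCact rats sit between 694.5 and 833.5 UMIs, below all other rats, while in TAL the groups overlap.

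Loop nuclei with at least 1000 UMIs accordingly held few ATL and DTL nuclei in the sGCact rats. They were 8 ATL and 3 DTL nuclei of 2588, against 97 and 36 of 1938 in the vehicle rats. Fitted within this filter, the change in log odds was -2.67 for ATL and -2.54 for DTL (limma adjusted p = 0.00149 for each, 2 of 23 clusters, 8.7%). The filter keeps nuclei by the UMIs that differed between the groups, so these values repeat the low UMIs of the nuclei and are no separate measure of a share. With all nuclei DTL had the other direction and ATL did not pass. The filter of at most 1% mitochondrial UMIs likewise kept 3 of 55, 3 of 28 and 3 of 6 ATL nuclei of the sGCact rats, and the value of -2.75 for ATL within it (limma adjusted p = 0.00436, 1 of 23 clusters) repeats their mitochondrial percentages.

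Between sGCact and sGCstim rats, with all nuclei, 0 of 23 clusters passed as shares of their type (0% called by limma, 0 at an unadjusted p under 0.05, 0 by edgeR). The thin limbs run in the medulla, and how much medulla each piece of kidney held was not measured, so its part in the values of the thin limbs was not tested.

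**Figure D3:**
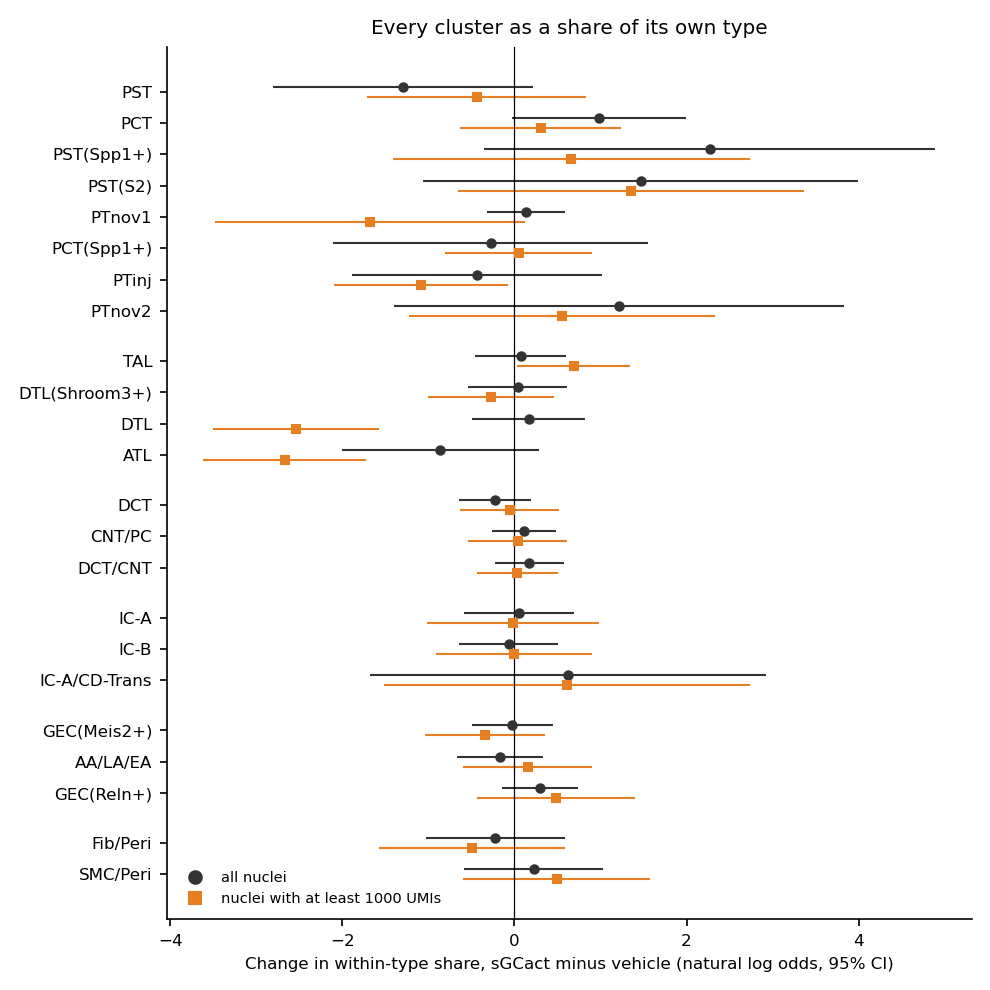
Change in the share of each of 23 clusters within its own type, sGCact minus vehicle, as natural log odds with 95% confidence intervals from limma, for all nuclei (circles) and for nuclei with at least 1000 UMIs (squares). The squares of ATL (-2.67) and DTL (-2.54) lie farthest from 0, where the filter itself removed most of the sGCact nuclei of these clusters; the unadjusted intervals of the PTinj and TAL squares also leave out 0, and every interval for all nuclei includes 0.

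Farther down the nephron the distal convoluted tubule (DCT), the connecting tubule with collecting duct principal cells (CNT/PC) and a cluster between them (DCT/CNT) adjust sodium, calcium and potassium. DCT made up 40.6%, 45.3% and 46.4% of this type with vehicle and 39.3%, 36.2% and 40.3% with sGCact, without overlap. DCT/CNT made up 18.0%, 18.6% and 20.9% with vehicle and 21.5%, 22.7% and 21.8% with sGCact, also without overlap. The changes were small, at -0.23 (SE 0.189) and 0.17 (SE 0.181), and did not pass (limma adjusted p = 0.795 for each, exact permutation p = 0.1 for each). With at most 1% mitochondrial UMIs both had the other direction (0.0615 for DCT and -0.0112 for DCT/CNT), and as a share of all nuclei DCT was higher with sGCact (0.95). CNT/PC had 36.7% ± 4.38 (SD, n = 3) and 39.4% ± 1.60 (SD, n = 3), and its fitted change was 0.11 (SE 0.167).

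Quality values of this type gave 1 call, in genes per nucleus, which 4 of 16 alternatives kept. Median UMIs did not overlap between the groups in 3 of 23 clusters, namely ATL, DCT and podocytes. The median DCT nucleus held 1454, 1362 and 1627 UMIs with vehicle and 2298.5, 2132 and 2041 with sGCact, every sGCact rat above every vehicle rat, and the log2 change of 0.54 did not pass (limma adjusted p = 0.494, with a limit of 5 nuclei). Genes per nucleus were compared in nuclei with 1000 to 1500 UMIs, a window within which depth could still differ. In these the median number of genes in DCT/CNT/PC nuclei was 740, 739 and 882.5 with vehicle and 892, 872 and 903 with sGCact. The log2 change of 0.18 (SE 0.0622, limma adjusted p = 0.0370) was the call of 1 of 7 types (14.3%). RK16_4 lay with the sGCact rats. The call was lost with the mean in place of the median, with the compared groups alone, with 1500 to 2000 UMIs, and without any of RK7_4, RK9_4, RK43_4, RK45_4, RK46_4, RK57_4, RK58_4, RK61_4 or RK3_4. It held without RK16_4 (change 0.27, limma adjusted p = 0.000434), when 4 of 7 types passed. Loop nuclei, at 792, 829.5 and 871.5 genes with vehicle and 903, 906 and 912 with sGCact, did not overlap, unlike DCT/CNT/PC nuclei (change 0.13, unadjusted p = 0.0453, limma adjusted p = 0.158).

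Intercalated cells (IC), which secrete acid (type A) or base (type B), kept their makeup within the spread of the rats. IC-A made up 48.8% ± 8.93 (SD, n = 3) of them with vehicle and 50.0% ± 5.98 (SD, n = 3) with sGCact, and IC-B 49.3% ± 6.55 (SD, n = 3) and 47.6% ± 3.51 (SD, n = 3). The small cluster IC-A/CD-Trans had the largest fitted change of the type. It made up 0%, 0.683% and 4.86% with vehicle, where the 0 of 323 nuclei of RK7_4 allows up to 0.929%, and 0.753%, 0.960% and 5.18% with sGCact. RK16_4 and RK46_4 were high in either group, and the change was 0.62 (SE 1.03, limma adjusted p = 0.795). Without RK7_4 it was -0.25.

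Among endothelial nuclei, the glomerular cluster GEC(Meis2+) was the bulk, with 90.2% ± 1.56 (SD, n = 3) with vehicle and 90.0% ± 0.67 (SD, n = 3) with sGCact. AA/LA/EA, a vascular cluster whose name the sources used here do not spell out, had 6.47% ± 1.5 (SD, n = 3) and 5.49% ± 0.79 (SD, n = 3). GEC(Reln+), a small glomerular endothelial cluster named for reelin, made up 3.13%, 3.43% and 3.36% with vehicle and 4.50%, 4.6% and 4.34% with sGCact. The values of each group lay close together, and every sGCact rat was above every vehicle rat. The change was 0.30 (SE 0.199, 95% confidence interval -0.15 to 0.74, limma adjusted p = 0.764 and p = 0.1 in the exact permutation test). These shares rest on 10 to 60 nuclei in a rat, and their half-widths reached 1.98 percentage points. In lean and sGCstim rats the means were 1.54% and 3.08%. Among nuclei with at least 1000 UMIs the GEC(Reln+) shares overlapped, at 1.23%, 3.72% and 5.79% with vehicle and 5.74%, 6.69% and 3.39% with sGCact. They also overlapped among nuclei with at most 1% mitochondrial UMIs.

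In the stroma, fibroblasts and pericytes (Fib/Peri) made up 93.1%, 92.0% and 75.9% with vehicle and 90.1%, 83.2% and 84.6% with sGCact, the rest being smooth muscle cells and pericytes (SMC/Peri). Pericytes and smooth muscle are cells in which cGMP acts. RK16_4 was the lowest and the other vehicle rats were the highest, and the change of -0.22 (SE 0.359, limma adjusted p = 0.795) was smaller than its SE. For SMC/Peri the change was 0.22 (SE 0.360). Without RK16_4 the change of Fib/Peri was -0.67 (limma adjusted p = 0.129).

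As shares of all nuclei, none of the 8 types passed (0% called by limma, 0 at an unadjusted p under 0.05, 0 by edgeR) and none of the 11 types of the second type column (0% called, 0 at an unadjusted p under 0.05, 0 by edgeR). Proximal tubule nuclei made up 75.8%, 92.1% and 37.8% with vehicle and 56.9%, 69.9% and 32.6% with sGCact. In both groups the rat with the high UMI counts had the lowest share. The change was -0.90 (SE 0.628, limma adjusted p = 0.450), and DCT/CNT/PC had the largest change, 1.16 (SE 0.628, limma adjusted p = 0.450). In shares such as these, fewer proximal tubule nuclei and more nuclei of other types cannot be told apart. Without RK16_4, 4 of 8 types passed, namely proximal tubule (-1.67), DCT/CNT/PC (1.82), IC (1.74) and endothelium (1.27), each with an adjusted p of 0.0217 from limma, and 7 of the 11 types of the second column passed. Without RK9_4 the same 4 changes were -0.193, 0.51, 0.29 and 0.0331 (limma adjusted p = 0.944 for each), so their size rested on which vehicle rat entered. The loop, immune and podocyte shares had the other direction with at least 1 of the 6 rats left out. Immune nuclei, 2.34% ± 1.65 (SD, n = 3) with vehicle and 1.47% ± 0.34 (SD, n = 3) with sGCact, and stroma, 2.34% ± 1.5 (SD, n = 3) and 2.69% ± 0.36 (SD, n = 3), did not pass with or without that rat.

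Podocytes wrap the glomerular capillaries and form the filtration barrier. They numbered 56, 210 and 475 in the vehicle rats and 253, 148 and 255 in the sGCact rats, and as a share of all nuclei they did not differ beyond the spread (change 0.25, SE 0.542, limma adjusted p = 0.650). Their median UMIs were 590, 934.5 and 2156 with vehicle and 3201, 2790 and 2654 with sGCact. Every sGCact rat was above every vehicle rat, and RK16_4 was nearest to them. The log2 change was 1.44 (SE 0.454, limma adjusted p = 0.0465 and p = 0.1 in the exact permutation test), the call of 1 of 8 types (12.5%) and, over clusters with at least 10 nuclei in every rat, of 1 of 22 (4.55%, limma adjusted p = 0.00413). By type the call was lost without any of RK7_4, RK9_4, RK43_4, RK45_4, RK58_4, RK1_4, RK3_4 or RK5_4, and by cluster without RK7_4, RK9_4 or RK1_4 (1.02 without RK7_4, 1.95 without RK16_4), with the compared groups alone and with robust moderation.

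The median mitochondrial percentage of podocytes was 5.74%, 5.65% and 0.0430% with vehicle and 0.136%, 0% and 0% with sGCact. RK7_4 and RK9_4 were high, and RK16_4 lay among the sGCact rats, so the groups overlapped. The change, with 0.1 added before log2, was -3.66 (SE 1.61, unadjusted p = 0.0397, limma adjusted p = 0.318). Without RK16_4 it was -5.44 (limma adjusted p = 0.0251). Over all types, 0 of 8 passed (0% called by limma, 1 at an unadjusted p under 0.05), and over clusters with at least 10 nuclei in every rat 0 of 22 (0% called, 1 at an unadjusted p under 0.05). In the sGCstim group 1 rat, RK61_4, had podocytes like those of RK7_4 and RK9_4, with 842 UMIs and 4.73%, and the other two had 2606 and 2554 UMIs and 0%.

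**Figure D4:**
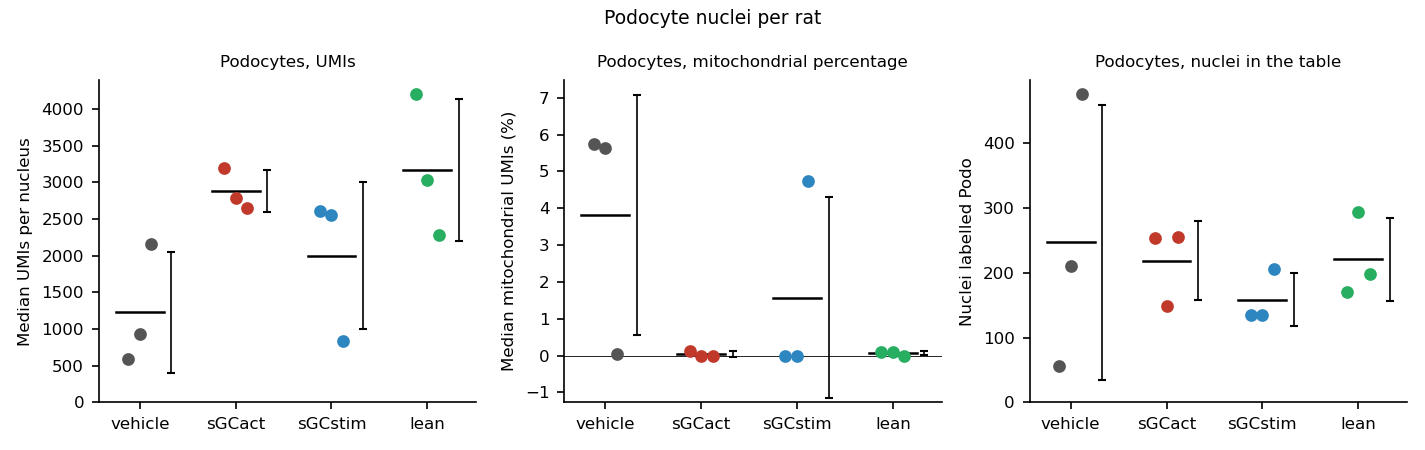
Median UMIs per podocyte nucleus, median percentage of mitochondrial UMIs and number of podocyte nuclei, with 1 point per rat, a line at the mean of 3 rats and a bar of ± 1 SD. The sGCact rats lie between 2654 and 3201 UMIs, above the 590 to 2156 of the vehicle rats, and RK16_4 has 475 nuclei and few mitochondrial UMIs.

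Across clusters, the share of nuclei with at least 1000 UMIs did not overlap between the groups in 5 of 23 clusters (21.7%). It was lower with sGCact in ATL, DTL and PTinj and higher in DCT and podocytes. In DCT the share was 93.4% in the vehicle rat RK16_4 and 93.8% in the sGCact rat RK43_4, and in podocytes 93.3% and 93.7%. These pairs lay closer together than their half-widths, 1.38 and 1.31 percentage points in DCT and 2.27 and 3.05 in podocytes. For PTinj, the injured proximal tubule cluster, the share was 94.5%, 99.1% and 94.0% with vehicle and 84.1%, 58.3% and 76.8% with sGCact. Its half-widths were at most 5.67 percentage points. The share with at most 1% mitochondrial UMIs did not overlap in 4 of 23 clusters (17.4%), lower in ATL and PTinj and higher in DCT and CNT/PC. For PTinj this was 96.4%, 95.2% and 93.2% with vehicle and 76.9%, 70.4% and 78.2% with sGCact. In sGCstim rats it was 95.4%, 98.6% and 99.5%, and in lean rats 89.7%, 67.0% and 83.8%. More of the PTinj nuclei of the sGCact rats thus lay below 1000 UMIs, and more lay above 1% mitochondrial UMIs, than in the vehicle rats. Whether these were the same nuclei was not tested. Their median UMIs of 2008, 1511 and 1929 overlapped the 1835, 2678 and 1826 of the vehicle rats. The median mitochondrial percentage of PTinj ran from 0% to 0.126% in either group. As a share of proximal tubule nuclei with at least 1000 UMIs, PTinj made up 18.6%, 4.96% and 28.3% with vehicle and 6.06%, 4.65% and 5.46% with sGCact (change -1.08, SE 0.459, unadjusted p = 0.0383, limma adjusted p = 0.235; without RK9_4 -1.67, limma adjusted p = 0.00626). This filter, too, kept a smaller part of the PTinj nuclei in the sGCact rats, so the value is no separate measure of a share.

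The table also held S and G2M scores, module scores for the expression of genes of DNA replication and of mitosis in a nucleus, which can lie below 0. The mean G2M score of all nuclei was 0.00223, 0.00528 and -0.00633 in the vehicle rats and -0.00943, -0.00725 and -0.00745 in the sGCact rats. Every sGCact rat was lower (exact permutation p = 0.1). Within types, fitted after these values were seen, it was lower in 7 of 8 types, with 0 of 8 passing (0% called by limma, lowest adjusted p = 0.0614, 4 at an unadjusted p under 0.05). These were proximal tubule (-0.00805, SE 0.00245), loop (-0.00466, SE 0.00174), stroma (-0.00790, SE 0.00329) and podocytes (-0.0220, SE 0.00869). In the first 3 of these the groups did not overlap, and without RK16_4 all 4 passed. At 1000 to 1500 UMIs, 0 of 7 types passed and 0 had an unadjusted p under 0.05, and the proximal tubule change was -0.00515 (SE 0.00400). For the S score 0 of 8 types passed (0% called by limma, 0 at an unadjusted p under 0.05), and the proximal tubule change was 0.00169 (SE 0.00163). At 1000 to 1500 UMIs 0 of 7 types passed (lowest limma adjusted p = 0.196) and 1, immune cells, had an unadjusted p under 0.05, with a limma change of -0.0135 (SE 0.00608, unadjusted p = 0.0471). In the proximal tubule it was there higher in every sGCact rat than in every vehicle rat, by 0.00488 (SE 0.00229, unadjusted limma p = 0.0561 and p = 0.1 in the exact permutation test). Whether nuclei were cycling was not read from these scores.

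**Figure D5:**
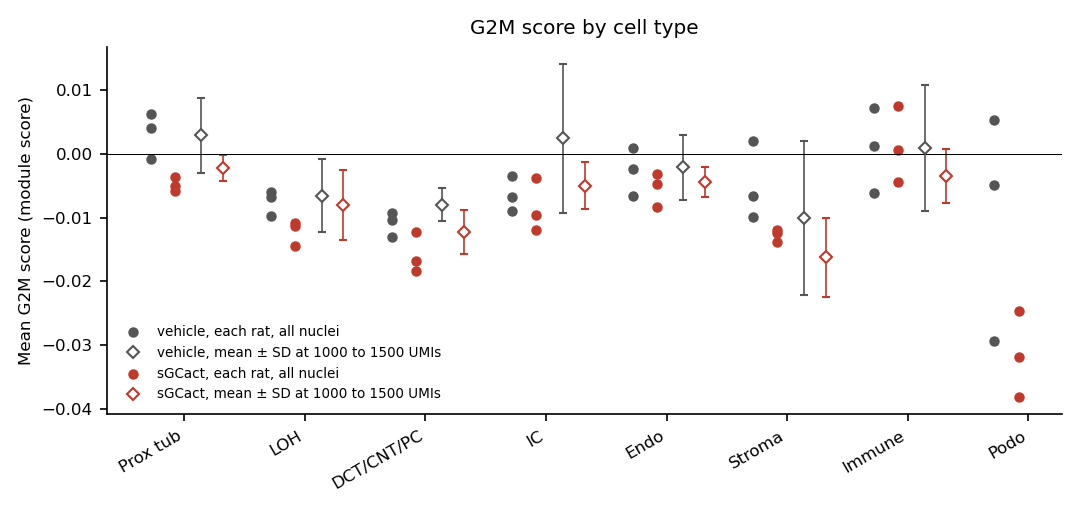
Mean G2M score of each cell type, a module score without unit. Filled points are single rats over all nuclei, and open diamonds are means ± SD of 3 rats over nuclei with 1000 to 1500 UMIs. Podocytes have no diamonds, as fewer than 10 such nuclei were present in at least 1 rat. The filled sGCact points lie below the vehicle points in proximal tubule, loop and stroma, and the diamonds overlap within their SD.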

How the data were processed

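The authors aligned droplet-based single-nucleus reads of 12 rat kidneys to rn6 with introns included (Cell Ranger 6 and Seurat per the submitters' processing notes), removed ambient RNA and doublets, kept nuclei with 200 to 3000 genes and at most 15% mitochondrial UMIs, corrected batches, clustered and named the nuclei. The deposited table gives each nucleus its rat, group, cluster and types, UMI counts after the correction for ambient RNA and gene counts, the percent of mitochondrial UMIs and the S and G2M score, all made by the authors. Columns of per-sample values left unused numbered 0. A rat is known in the table by its group alone, not by a sample entry.

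Nuclei were counted per rat and cluster, and log odds with 0.5 nuclei added to a cluster and to the rest of its type entered a model in limma 3.58.1 (R 4.3.3) over all 12 rats in 4 groups of 3, which share 1 estimate of the spread, with Benjamini-Hochberg adjustment and a threshold of 0.05. The median quality values per rat were fitted on the log2 scale, with 0.1 added to percentages, in which changes of low values are understated. Clusters and types of 1 rat are not independent, which these fits do not model. Exact two-sided permutation tests used 3 rats against 3, where no p is below 0.1. Alternatives were edgeR 4.0.16, other transformations, filters of 500 and 1000 UMIs and of 1% mitochondrial UMIs, and leaving out each rat. The fits of scores by type, those with a limit of 5 nuclei, the alternatives within the 1000 UMI filter and the fit without RK16_4 and RK46_4 were added after the data were seen. Scripts were tested on simulated data.

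Values of every rat are given for clusters with an unadjusted p under 0.05, without overlap, or with the largest change of their type, and for ATL, DTL, DCT, PTinj and podocytes where quality values are described, chosen after their values were seen. The comparison and its lists were chosen with earlier results of these data known. There were 108 nuclei, 50 of them in the 6 rats, whose cluster belongs to another type than their own type. No single gene was analysed here.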

Additional observations from a re-analysis of the deposited data

How the results depend on the processing

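No paired analysis was possible because the rats in the table carry no replicate number. Across the settings that did not leave out a rat, 220 values kept their direction and their side of the threshold, 10 gained a call or calls, 12 lost one and 5 reversed. The number of clusters changed within their type went from 0 to 2 with at least 1000 UMIs, to 1 with at most 1% mitochondrial UMIs, and to between 0 and 1 with 1 rat left out. Between sGCact and sGCstim rats it went from 0 to 2 under each of these filters. With 1 rat left out, the number of types passing ran from 0 to 4 and that of types of the second column from 0 to 7, the highest without RK16_4. For mitochondrial percentages by type, 1 passed with the mean over nuclei and 0 to 1 with 1 rat left out. With a limit of 5 nuclei 1 cluster passed with 1 added before log2, and 0 to 3 with 1 rat left out. For median UMIs, 0 to 1 types and 0 to 2 clusters passed with 1 rat left out, and 0 clusters with the compared groups alone and with robust moderation. With a limit of 5 nuclei the latter gave 1 and leaving out 1 rat 0 to 3. For genes at matched UMIs 0 types passed with the mean, with the compared groups alone and with 1500 to 2000 UMIs, and 0 to 4 with 1 rat left out.

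With 1 of the 6 rats left out, the within-type change of 12 of 23 clusters and the change of 3 of 8 types (loop, immune and podocytes) had the other direction in at least 1 fit. The 12 were PTnov1, PCT(Spp1+), PTinj, TAL, DTL(Shroom3+), DTL, IC-A, IC-B, IC-A/CD-Trans, GEC(Meis2+), Fib/Peri and SMC/Peri, and none of these changes passed with all rats. The calls of ATL and DTL within the filters follow from the filters, which keep nuclei by values that differ between the groups. Among the values of the clusters and measures given for every rat by rule, those that reversed were the S score difference with 8 types weighted equally (-0.000489), the difference in the number of nuclei, which ran from -10527 to 5937 with 1 rat left out, DCT with at most 1% mitochondrial UMIs (0.0615) and as a share of all nuclei (0.95), DCT/CNT with at most 1% mitochondrial UMIs (-0.0112), Fib/Peri as a share of all nuclei (0.255), and, with 1 rat left out, IC-A/CD-Trans (-0.25 without RK7_4 to 1.51 without RK16_4) and Fib/Peri (-0.67 without RK16_4 to 0.0377 without RK7_4). The cause was not tested for any of these, and 3 rats in a group limit what any of them can show.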
